A study of Homo sapiens with 6 samples.

Results

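CD44 is the cell-surface receptor for hyaluronan, a long sugar polymer of the extracellular matrix. The rows examined are all those filed under CD44 in the deposited table, 8 RefSeq transcripts of 59128 in all, and none of the 8 was repeated. They were measured by RNA sequencing in 2 established human pancreatic cancer cell lines, each carrying 1 of 3 constructs. The libraries are PANC-1 with ESRP1 overexpression, PANC-1 with ESRP2 overexpression, PANC-1 with the LPCX control, MIA-PaCa2 with ESRP1 overexpression, MIA-PaCa2 with ESRP2 overexpression and MIA-PaCa2 with the LPCX control. There is 1 library for each of these 6 combinations, no treatment is listed, and the labels do not say what drives the constructs or whether the cells were clones or pools. The question named in the study's design is what ESRP1 and ESRP2, a pair of epithelial RNA-binding splicing proteins, do in pancreatic cancer progression.

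The CD44 gene has constant exons at both ends and a run of variable exons between them, which are spliced in or out. The constant part near the start of the protein binds hyaluronan, and the variable exons lengthen the stem between that part and the membrane. The form with no variable exon is called standard CD44, or CD44s, and is typical of mesenchymal cells. Forms with variable exons are typical of epithelia, and the form with v8 to v10 is known as the epithelial form. ESRP proteins are known to favour inclusion of CD44 variable exons in epithelial cells. Exon v3 carries a site for heparan sulfate, and v6 is known for the part it plays in signalling of the growth factor receptor MET.

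The 8 transcripts were paired with GENCODE release 29 models on chromosome 11 of GRCh38. NM_001001391 is the standard form, with 9 exons and 361 codons. NM_001202557 also lacks variable exons, but ends in another last exon (chr11:35222375-35223320 in place of one starting at 35229129). That last exon is known to give CD44 a short cytoplasmic tail, so it is called the short-tail form here. Its coding model of 880 bases is not a whole number of codons, so its length is not set against that of the other forms. The long tail of the standard protein is the part that meets ezrin-type linkers to actin. NM_001202555 holds v10 only (429 codons), NM_001001390 holds v8 to v10 (493 codons), NM_001001389 holds v3 to v10 (699 codons) and NM_000610 holds v2 to v10 (742 codons). The remaining NM_001001392, with 4 exons, and NM_001202556, with 8, also have no variable exon. All 9 variable exons are coding, and each has a length divisible by 3, so that any of them can be added without a shift of frame. Variable forms in other combinations are not rows of the table, so v3 to v7 can be counted only as a block, and reads of unlisted forms would be assigned to the listed ones. The forms also overlap over most of their length, so their TPM rest on how the authors' quantification split the shared reads.

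**Figure D1:**
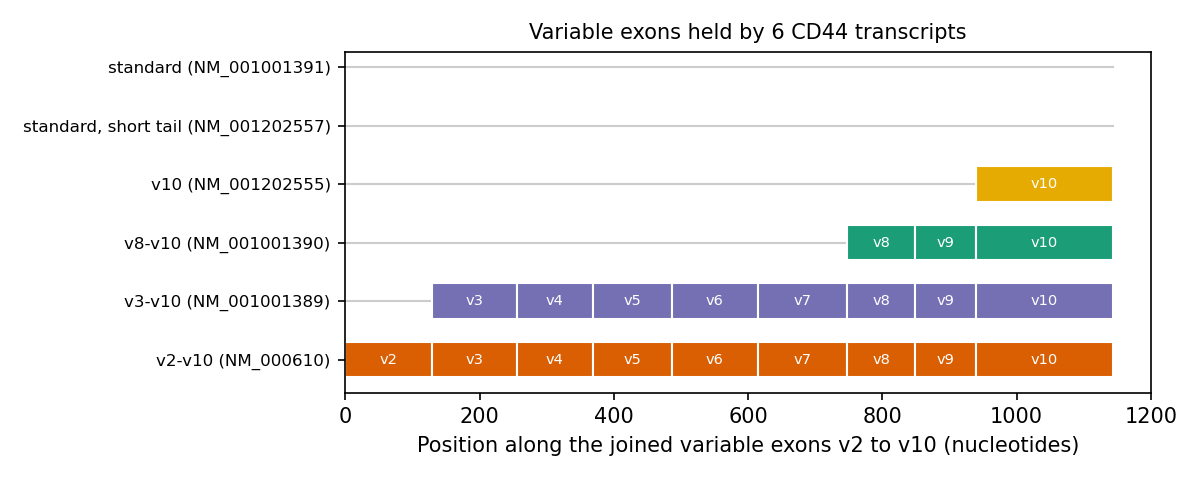
Variable exons held by 6 of the 8 CD44 transcripts. The horizontal axis is the position along the 9 joined variable exons in nucleotides, to scale, and each box is an exon that the transcript holds. The standard and short-tail forms have no box, and the longest insert is 1143 nucleotides in the v2-v10 form.

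The standard form and the 4 forms with variable exons part company at a single point, the end of the last constant exon before the variable run (position 35190065). The sequences around this junction show what sets each form apart in the reads. They are from the GENCODE transcripts, on the plus strand, with the last 25 bases of the shared exon in lower case and the first 25 of the next exon in capitals.
standard form: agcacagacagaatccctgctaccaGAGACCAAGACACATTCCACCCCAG
v10 form: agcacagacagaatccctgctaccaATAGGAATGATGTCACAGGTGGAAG
v8-v10 form: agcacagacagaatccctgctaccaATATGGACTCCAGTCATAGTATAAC
v3-v10 form: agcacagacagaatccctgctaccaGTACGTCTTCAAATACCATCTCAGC
v2-v10 form: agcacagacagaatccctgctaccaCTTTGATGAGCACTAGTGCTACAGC

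The lower-case part is the same in all 5, and the capitals differ from one form to the next. The short-tail form has the same junction as the standard form, so this junction does not tell those apart. The 3 exons that make up the insert of the v8-v10 form are given whole, since they carry most of the change described next. ESRP proteins are known to bind RNA rich in GGU, so 5 hexamers of that kind were searched. They were GGTGGT with its shifted forms TGGTGG and also GTGGTG, and in addition TGGGTG together with GGTGGG, which overlap one another and were counted once per start position. Matches on the transcript strand are in capitals.
v8, chr11:35208105-35208206: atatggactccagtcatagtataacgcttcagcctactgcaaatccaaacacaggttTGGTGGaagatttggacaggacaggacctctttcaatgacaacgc
v9, chr11:35209965-35210054: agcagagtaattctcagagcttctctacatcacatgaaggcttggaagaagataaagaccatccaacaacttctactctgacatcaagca
v10, chr11:35211246-35211449: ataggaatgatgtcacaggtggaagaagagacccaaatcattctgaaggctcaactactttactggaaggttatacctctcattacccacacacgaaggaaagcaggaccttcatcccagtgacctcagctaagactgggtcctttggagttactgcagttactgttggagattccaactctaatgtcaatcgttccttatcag

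Of the 9 variable exons, v8 was the one with a match on the transcript strand, at 1 position. Windows of the same 102 bases at the start of 107703 internal coding exons held at least 1 match in 14.6%. On the other strand v4, v5 and v6 had 1 match each, with 16.0%, 16.5% and 18.5% of equal windows holding 1 or more. The match in v8 is thus a description of its letters, and the introns around the exons were not analysed here.

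Each library had between 10578 and 10932 genes at 5 TPM or more. TPM is a transcript abundance scaled for transcript length and library size, so transcripts can be compared with each other, but the number of reads behind a value is unknown. Keratins KRT8 and KRT18, filaments of simple epithelia, were at 679.8 to 2223 TPM in the 6 libraries. The epithelial adhesion gene EPCAM was at 24.4 to 28.2 TPM in PANC-1 and at 0 TPM in MIA-PaCa2. In the same list KRT19 and SOX9 were at 99.7 TPM or more, but KRT7 was at most at 2.00 TPM. CDH1 was at 3.89 to 8.59 TPM in PANC-1 and at most at 0.173 TPM in MIA-PaCa2. The leukocyte gene PTPRC was at most at 0.563 TPM, while LYZ of the leukocyte list reached 9.84 TPM, in MIA-PaCa2 ESRP1. COL1A1 of the fibroblast list reached 107.8 TPM, in PANC-1 ESRP1. The islet hormone genes INS, GCG and SST were at 0 in all. Summed marker lists lay at 0.575 to 11.4 TPM for leukocytes, 0 to 0.729 TPM for acinar cells, 0.214 to 3.202 TPM for endothelium and 1.48 to 108 TPM for fibroblasts, and their part in the results was not tested. The introduced genes were at the level their labels imply. The ESRP1 gene was at 491 TPM in PANC-1 ESRP1 and 367 TPM in MIA-PaCa2 ESRP1, and at most at 0.261 TPM in the other 4 libraries. ESRP2 was at 307.5 TPM in PANC-1 ESRP2 and 197 TPM in MIA-PaCa2 ESRP2. In PANC-1 it was also at 37.7 TPM with ESRP1 and 34.8 TPM with LPCX, against 0.106 and 0.0704 TPM in MIA-PaCa2.

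Total CD44 differed little between constructs. It was at 906 TPM in PANC-1 ESRP1, 867 TPM in PANC-1 ESRP2 and 772 TPM in PANC-1 LPCX. In MIA-PaCa2 it was at 697 TPM with ESRP1, 635 TPM with ESRP2 and 679 TPM with LPCX. Among 27408 genes this placed CD44 between rank 123 and rank 187 in every library. Over both lines, limma gave a log2 difference in total of 0.13 for ESRP1 against LPCX (SE 0.092, 95% interval -0.097 to 0.37, adjusted p = 0.687), with 0.021 without PANC-1 LPCX and 0.25 without MIA-PaCa2 LPCX. For ESRP2 against LPCX it was 0.035 (SE 0.092, 95% interval -0.20 to 0.27, adjusted p = 0.873), a sign that turned to -0.011 under median ratio scaling and to -0.048 or -0.078 without PANC-1 ESRP2 or PANC-1 LPCX. In such bulk samples fewer cells with a transcript and less of it per cell cannot be told apart. For these comparisons 0.00845% and 0.0169% of all 11829 genes were called, and the median over all genes was 0.060 and 0.062. ESRP1 against ESRP2 gave 0.099 (SE 0.092, adjusted p = 0.952), and it was 0.016 when MIA-PaCa2 ESRP2 was left out and 0.18 when PANC-1 ESRP2 was. PANC-1 against MIA-PaCa2 differed by 0.34 (SE 0.075, adjusted p = 0.00801), a comparison in which 78.8% of all genes passed, and it missed the threshold without either ESRP1 library (adjusted p = 0.0523 without PANC-1 ESRP1 and 0.053 without MIA-PaCa2 ESRP1).

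**Figure D2:**
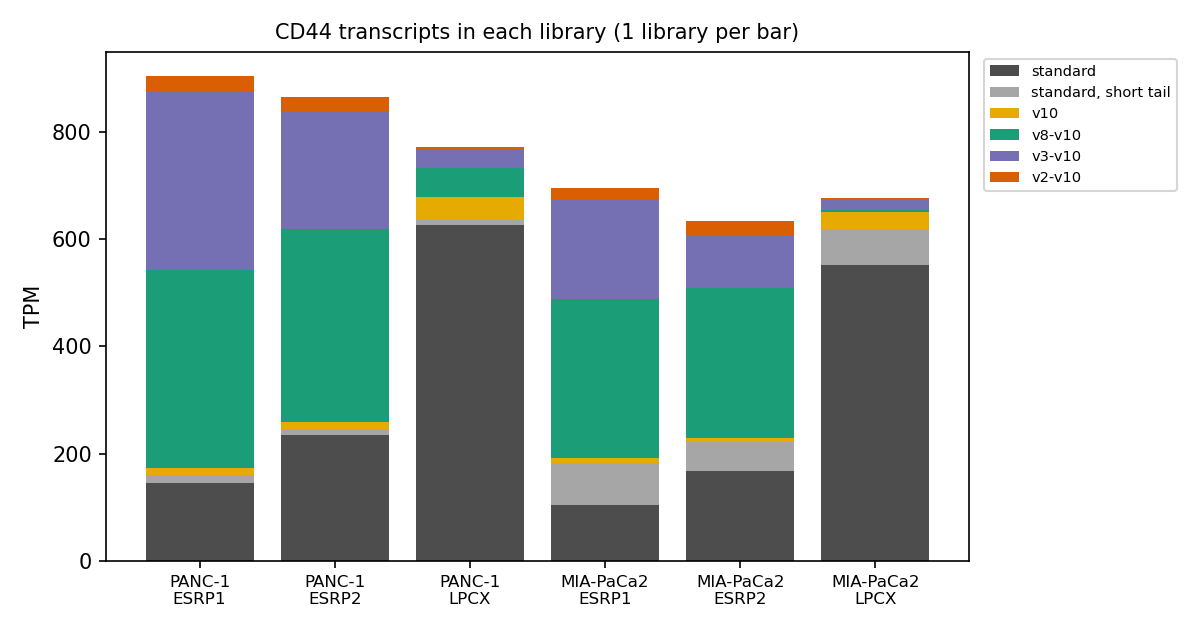
TPM of 6 CD44 transcripts in each library, stacked, with 1 library per bar, so there is no error bar. The standard form makes up most of both LPCX bars, and the forms with v8 to v10 make up most of the 4 ESRP bars, while bar heights stay between 635 and 906 TPM.

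The standard form had the largest loss of share among the CD44 transcripts with either protein. NM_001001391 was at 145 TPM in PANC-1 ESRP1 and 234 TPM in PANC-1 ESRP2, against 627 TPM in PANC-1 LPCX. In MIA-PaCa2 it was at 104 TPM with ESRP1 and 167 TPM with ESRP2, against 552.5 TPM with LPCX. All 4 ESRP libraries lay below both LPCX libraries, and the ESRP1 library of each line lay below its ESRP2 library. In PANC-1 the ratio over LPCX was 0.231 with ESRP1 and 0.374 with ESRP2, and in MIA-PaCa2 it was 0.189 and 0.302. Its share of CD44 TPM changed by -65.2 and -54.1 percentage points in PANC-1 with ESRP1 and ESRP2, and by -66.4 and -55.1 points in MIA-PaCa2. Ranked by loss of share among 12965 transcripts, those of 6003 genes with at least 5 TPM that reached 10% of their gene in a library, it stood at rank 1 and rank 2 in PANC-1 with ESRP1 and ESRP2. In MIA-PaCa2 it stood at rank 2 and rank 9. The ESRP1 and ESRP2 comparisons of a line share their LPCX library.

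The forms that hold v8 to v10 were higher in every ESRP library. NM_001001390, the v8-v10 form, was at 370.5 TPM in PANC-1 ESRP1 and 361 TPM in PANC-1 ESRP2, against 55.1 TPM in PANC-1 LPCX. In the MIA-PaCa2 libraries it was at 298 TPM with ESRP1 and 280.0 TPM with ESRP2, against 1.90 TPM with LPCX. The 2 ESRP libraries of a line were close here, and both lay above the LPCX library of their line.

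NM_001001389, the v3-v10 form that adds the heparan sulfate exon and v6, was at 333.5 TPM in PANC-1 ESRP1 and 221 TPM in PANC-1 ESRP2, against 34.7 TPM in PANC-1 LPCX. Its MIA-PaCa2 levels were 184 TPM with ESRP1 and 99.96 TPM with ESRP2, against 21.2 TPM with LPCX. In both lines the ESRP1 library was the highest and the LPCX library the lowest. The ratio over LPCX was 9.62 and 6.37 in PANC-1 with ESRP1 and ESRP2, and 8.68 and 4.71 in MIA-PaCa2.

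NM_000610, the longest form, was a small part throughout. It was at 29.5 TPM in PANC-1 ESRP1 and 26.3 TPM in PANC-1 ESRP2, against 3.27 TPM in PANC-1 LPCX. MIA-PaCa2 had it at 23.5 TPM with ESRP1 and 26.5 TPM with ESRP2, against 1.76 TPM with LPCX. The 4 ESRP libraries all lay above both LPCX libraries, with no set order between ESRP1 and ESRP2.

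The form with v10 alone was lower in every ESRP library, like the standard form, although it holds a variable exon. NM_001202555 was at 12.5 TPM in PANC-1 ESRP1 and 15.6 TPM in PANC-1 ESRP2, against 41.8 TPM in PANC-1 LPCX. The MIA-PaCa2 libraries held it at 7.99 TPM with ESRP1 and 7.91 TPM with ESRP2, against 33.8 TPM with LPCX. The ratio over LPCX was 0.299 and 0.374 in PANC-1 and 0.236 and 0.234 in MIA-PaCa2, for ESRP1 and ESRP2 in turn. Without the share filter, where it could be tested, its log2 odds within the gene differed by -2.05 for ESRP1 (SE 0.298, adjusted p = 0.595) and by -1.80 for ESRP2 (SE 0.298, adjusted p = 0.567). In the same fit the v2-v10 form differed by 3.11 for ESRP1 (SE 0.368, adjusted p = 0.595) and by 3.22 for ESRP2 (SE 0.368, adjusted p = 0.396).

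The short-tail form, which also lacks variable exons, was closer to its LPCX level, with ratios over LPCX of 1.44 and 0.844 in PANC-1 and 1.19 and 0.817 in MIA-PaCa2 for ESRP1 and ESRP2. NM_001202557 was at 15.3 TPM in PANC-1 ESRP1 and 8.94 TPM in PANC-1 ESRP2, against 10.6 TPM in PANC-1 LPCX. In MIA-PaCa2 it was at 78.7 TPM with ESRP1 and 53.9 TPM with ESRP2, against 66.0 TPM with LPCX. In both lines the ESRP1 library lay above and the ESRP2 library below LPCX. Its log2 odds differed by 0.26 for ESRP1 (SE 0.576, 95% interval -1.22 to 1.75, adjusted p = 0.981) and by -0.31 for ESRP2 (SE 0.576, 95% interval -1.79 to 1.18, adjusted p = 0.943). The short tail made up 9.53% of the CD44 TPM that lacks variable exons in the ESRP1 library of PANC-1 and 3.67% in its ESRP2 library, against 1.66% with LPCX. In MIA-PaCa2 that part was 42.9% with ESRP1 and 24.4% with ESRP2, against 10.6% with LPCX. Whether any short-tail RNA holds variable exons cannot be read from the table, which lists no such form.

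The remaining pair of transcripts was close to absent. NM_001001392 was at 0.175, 0.0608 and 0.324 TPM in PANC-1 with ESRP1, ESRP2 and LPCX, and at 0.160, 0.0586 and 1.27 TPM in MIA-PaCa2. NM_001202556 was listed at 0 TPM in PANC-1 LPCX and was at most at 0.564 TPM, in MIA-PaCa2 LPCX.

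The test over both lines asked whether a transcript's odds within its gene differed between constructs beyond the spread left after construct and line. That spread was pooled over all 6 libraries, with 2 residual degrees of freedom. It was then drawn towards a trend over all tested transcripts, which carried 2.96 degrees of freedom. Of the 8 CD44 transcripts, 4 reached the 10% share needed. The standard form did so in 6 libraries, while the other 3, the v8-v10, v3-v10 and short-tail forms, did so only in ESRP libraries, so their passing the filter was tied to their level there. The standard form fell with ESRP1, with a log2 odds difference of -4.56 (SE 0.201, 95% interval -5.07 to -4.04, adjusted p = 0.0433). It was the 1 CD44 transcript called and 1 of 12965 called in all, or 0.00771%, with 740 transcripts at an unadjusted p under 0.05. This call was lost without any 1 of the 6 libraries (adjusted p = 0.0953 to 1.0), as well as in 6 of 7 other settings.

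For ESRP2 the standard form differed by -3.57 in log2 odds (SE 0.201, adjusted p = 0.0753). The background there was 0% called, with 824 transcripts at an unadjusted p under 0.05. The v3-v10 form differed by 3.53 for ESRP1 (SE 0.272, adjusted p = 0.334) and by 2.68 for ESRP2 (SE 0.272, adjusted p = 0.287), and its direction was the same in both lines. The v8-v10 form differed by 5.44 for ESRP1 (SE 1.21, adjusted p = 0.779) and by 5.50 for ESRP2 (SE 1.21, adjusted p = 0.589). Without MIA-PaCa2 LPCX these estimates were 3.15 and 3.21, and without PANC-1 LPCX they were 7.73 and 7.79. The wide errors go with unlike LPCX levels, 7.13% of CD44 in PANC-1 and 0.280% in MIA-PaCa2, with TPM ratios over LPCX of 6.72 and 6.55 in PANC-1 and 157 and 147 in MIA-PaCa2 for ESRP1 and ESRP2.

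**Figure D3:**
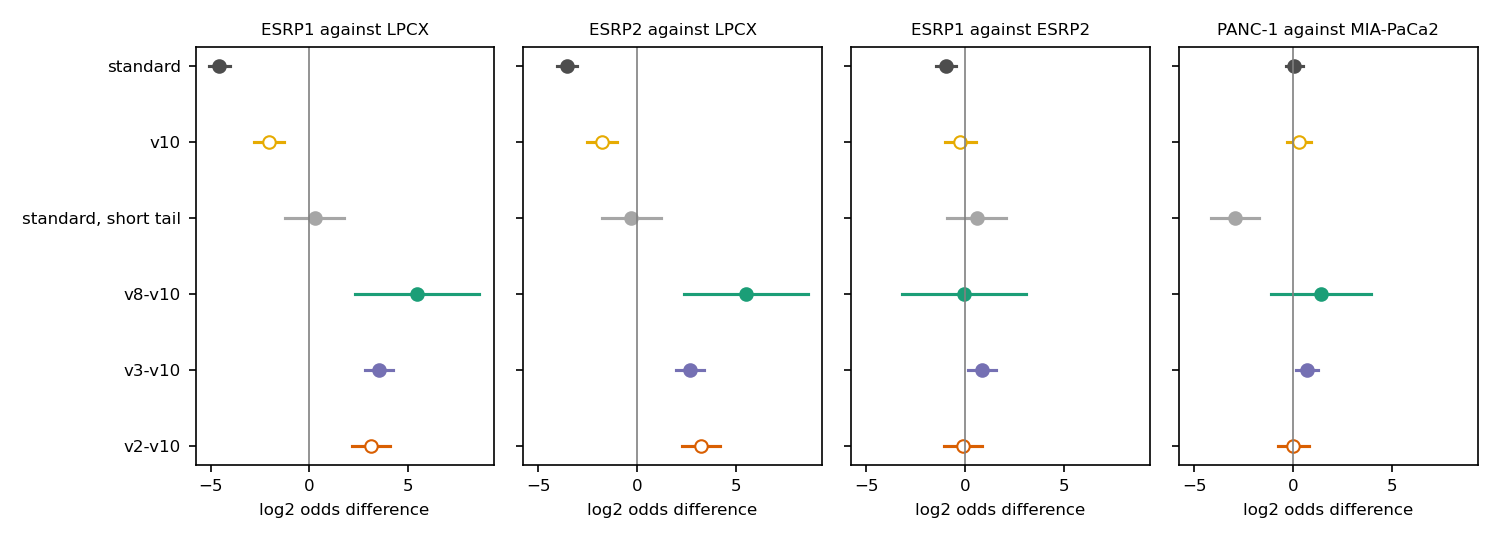
Differences in log2 odds of 6 CD44 transcripts within the gene, over both lines, by limma, with 95% intervals, 1 panel per comparison. Filled points were tested with the share filter and open points without it. The standard form lies at -4.56 and -3.57 against LPCX, the v8-v10 form has the widest intervals, and the short-tail form stands apart in the comparison of the lines, at -2.95.

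Within a line there are no replicates, so a share was counted as moved from a difference of 10 percentage points. By that step the standard, v8-v10 and v3-v10 forms moved in each of the 4 comparisons. That is 3 of the 8 CD44 transcripts, and 3 of the 4 that were tested. Nothing is read from this count, since the v8-v10 and v3-v10 forms passed the share filter only through ESRP libraries. Over all tested transcripts the share past the step was 10.8% for PANC-1 ESRP1, 12.1% for PANC-1 ESRP2, 12.9% for MIA-PaCa2 ESRP1 and 14.7% for MIA-PaCa2 ESRP2. The standard form was lower past the step in all 4, as were 0.309% of tested transcripts. The v8-v10 and v3-v10 forms were higher in all 4 (0.347% of tested transcripts were), and nothing is read from this for the same reason, their passing the filter only through ESRP libraries. At a step of 20 points the v3-v10 form no longer counted in MIA-PaCa2 ESRP2, where its share changed by 12.6 points and 2.98% of tested transcripts were past that step.

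Read by exon, inclusion stood at 4 levels along the variable run, those of v2, of v3 to v7, of v8 and v9, and of v10. Exons v8 and v9 were held by 80.9% of CD44 TPM for PANC-1 ESRP1 and 70.1% for PANC-1 ESRP2, against 12.05% in PANC-1 LPCX. In MIA-PaCa2 they were held by 72.6% with ESRP1 and 63.99% with ESRP2, against 3.67% with LPCX. Exon v10 differed from v8 and v9 by the v10 form alone, and so stood at 17.5% in PANC-1 LPCX and 8.64% in MIA-PaCa2 LPCX.

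Exons v3 to v7, which the table holds only as a block, reached 40.05% for PANC-1 ESRP1 and 28.5% for PANC-1 ESRP2, against 4.91% in PANC-1 LPCX. In MIA-PaCa2 they reached 29.8% and 19.9% with ESRP1 and ESRP2, against 3.39% with LPCX. Exon v2 stayed at 4.18% or less in all 6 libraries. The mean CD44 transcript held 4.48 variable exons for PANC-1 ESRP1 and 3.58 for PANC-1 ESRP2, against 0.665 in PANC-1 LPCX. In MIA-PaCa2 the means were 3.71 and 2.97 with ESRP1 and ESRP2, against 0.332 with LPCX. In nucleotides the mean insert was 575.0 and 461 in PANC-1 with ESRP1 and ESRP2, against 89.7 with LPCX, and in MIA-PaCa2 it was 478 and 384, against 46.0.

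**Figure D4:**
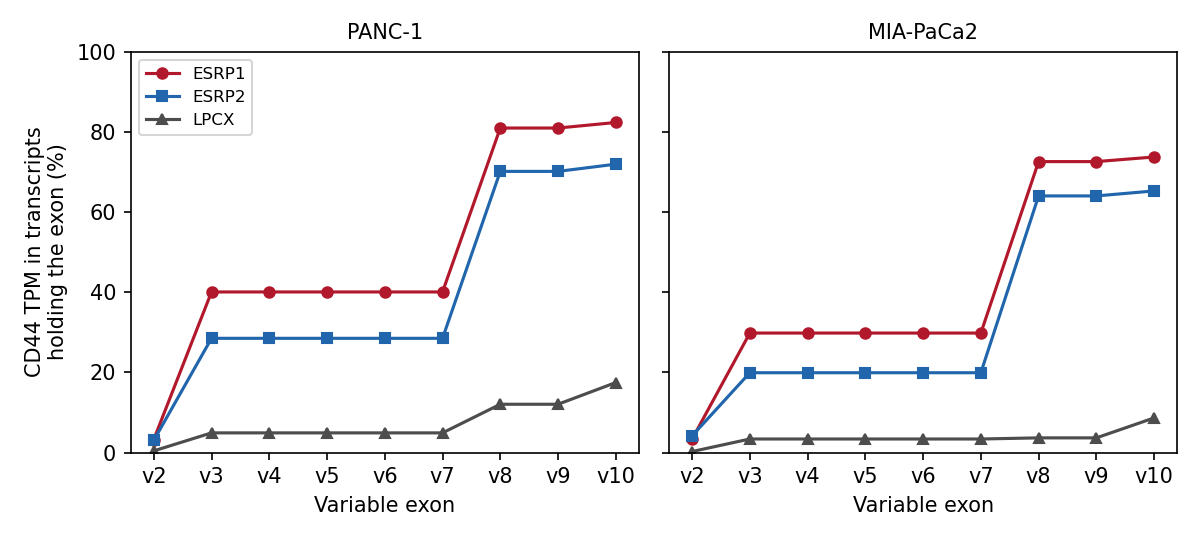
Percentage of CD44 TPM in transcripts that hold each variable exon, v2 to v10, in PANC-1 and MIA-PaCa2, with 1 library per line and construct. The ESRP1 and ESRP2 curves step up at v3 and again at v8, to 80.9% and 70.1% in PANC-1 and 72.6% and 63.99% in MIA-PaCa2, while the LPCX curves stay at or below 17.5%.

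The ESRP1 and ESRP2 libraries stood apart in the v3-v10 and standard forms and were close in the v8-v10 form. The v3-v10 form made up 36.8% of CD44 for PANC-1 ESRP1 and 25.5% for PANC-1 ESRP2, and 26.4% in MIA-PaCa2 ESRP1 and 15.7% in MIA-PaCa2 ESRP2. The v8-v10 form was at 40.9% and 41.6% in the ESRP1 and ESRP2 libraries of PANC-1, and at 42.8% and 44.1% in MIA-PaCa2. The standard form was at 15.98% and 27.04% in the same PANC-1 libraries, and at 14.97% and 26.3% in MIA-PaCa2. A gap of 10 points or more in the same direction in both lines was found for the v3-v10 form, higher with ESRP1 as were 0.818% of transcripts, and for the standard form, lower with ESRP1 as were 0.787%.

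In log2 odds, ESRP1 against ESRP2 gave 0.85 for the v3-v10 form (SE 0.272, 95% interval 0.15 to 1.56, unadjusted p = 0.026, adjusted p = 0.939). The standard form gave -0.99 (SE 0.201, 95% interval -1.50 to -0.47, unadjusted p = 0.00451, adjusted p = 0.939). The v8-v10 form gave -0.061 (SE 1.21, 95% interval -3.18 to 3.06, adjusted p = 0.997), an interval too wide to call the proteins alike. None of the 12965 transcripts was called (0%), with 582 at an unadjusted p under 0.05. The 2 proteins were not at equal levels, with 491 TPM of ESRP1 against 307.5 TPM of ESRP2 in PANC-1 and 367 against 197 TPM in MIA-PaCa2, so protein identity and dose cannot be told apart.

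Summed over both genes, ESRP RNA was at 529 TPM in PANC-1 ESRP1, 308 TPM in PANC-1 ESRP2, 368 TPM in MIA-PaCa2 ESRP1 and 197 TPM in MIA-PaCa2 ESRP2. The LPCX libraries had 35.1 TPM in PANC-1 and 0.149 TPM in MIA-PaCa2. The order of the 6 libraries by this sum was the same as their order by inclusion of v8 and by share of the v3-v10 form. Shares of the standard and v8-v10 forms did not keep to that order. The standard form was at 14.97% in MIA-PaCa2 ESRP1 and 15.98% in PANC-1 ESRP1. The v8-v10 form was at 40.9% in PANC-1 ESRP1 and 44.1% in MIA-PaCa2 ESRP2. A relation to dose was not tested. No correlation is given, because the libraries fall into an ESRP cluster and an LPCX cluster.

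Among the forms that hold v8 to v10, the makeup in MIA-PaCa2 LPCX stood apart from that in the other 5 libraries. Of these forms, 50.5% were v8-v10 and 45.5% were v3-v10 in PANC-1 ESRP1. The same parts were 59.4% and 36.3% in PANC-1 ESRP2, against 59.2% and 37.3% in PANC-1 LPCX. In MIA-PaCa2 the parts were 58.9% and 36.4% with ESRP1, 68.9% and 24.6% with ESRP2, and 7.65% and 85.3% with LPCX. In MIA-PaCa2 LPCX the v3-v10 form thus outweighed the v8-v10 form, but the total of these forms was only 24.9 TPM there, against 93.0 TPM in PANC-1 LPCX.

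**Figure D5:**
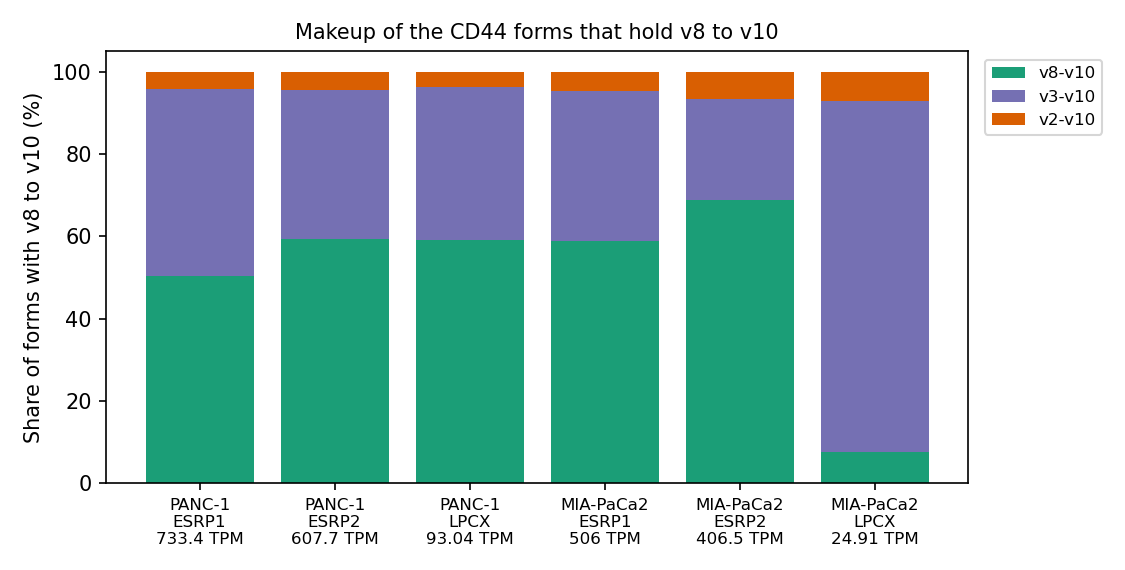
Makeup of the CD44 forms that hold v8 to v10, in percent of their summed TPM, which is printed under each bar, with 1 library per bar. The v8-v10 form is the larger part in 5 libraries, and in MIA-PaCa2 LPCX it is 7.65% of 24.91 TPM.

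Between the lines, the short-tail form was the 1 of 4 tested CD44 transcripts that was called. Only 1 library, MIA-PaCa2 ESRP1, brought it past the 10% share filter. Its entry to the test was thus tied to its level in that line, so nothing is read from the call. The short-tail form made up 1.69%, 1.03% and 1.37% of CD44 in PANC-1 with ESRP1, ESRP2 and LPCX, against 11.3%, 8.48% and 9.72% in MIA-PaCa2. It fell in PANC-1 against MIA-PaCa2, with a log2 odds difference of -2.95 (SE 0.470, 95% interval -4.16 to -1.73, adjusted p = 0.0228), a comparison in which 17.3% of transcripts were called, 9.14% as lower in PANC-1. The call was lost without any 1 library, at adjusted p = 0.0714 to 0.111. Of 6 other settings, 5 kept the call. One of these was the fit with no share filter (-2.95, adjusted p = 0.00854), where 3046 of 23003 transcripts were called. The 3 libraries of a line carry different constructs, so they stand in for replicates of the line only under that model. The standard form did not differ detectably between the lines (0.048, SE 0.164, 95% interval -0.37 to 0.47, adjusted p = 0.859).

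Some other genes had a transcript whose 4 share changes were close to those of CD44, measured as the root mean square difference in percentage points over the 4 comparisons. Nearest to the gain of the v8-v10 form was NM_020127 of TUFT1 (2.17 points), and NM_001184939 of EPB41L5 (4.70) and NM_001272036 of LRRC14 (8.98) were also close. The TUFT1 transcript was at 64.6% and 66.1% of its gene in PANC-1 with ESRP1 and ESRP2, against 31.7% with LPCX. In MIA-PaCa2 it was at 55.3% and 56.5%, against 15.8%. Nearest to the loss of the standard form was NM_153611 of CYB561A3 (10.5 points), and farther off were NM_018212 of the actin regulator ENAH (20.95), NM_001126337 of TUFT1 (23.4) and NM_145814 of CACNG6 (26.4). The CYB561A3 transcript was at 38.7% and 34.7% in PANC-1 with ESRP1 and ESRP2, against 85.2% with LPCX, and in MIA-PaCa2 at 39.6% and 38.6%, against 98.0%. These genes were picked for their likeness, so no test is attached.

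Genes around CD44 gave no call in level. Of 6 tested hyaluronan synthesis and turnover genes, 3 tested other hyaluronan receptors, 3 tested further ligands, 16 tested membrane and cytoplasmic partners and 8 tested shedding and cleavage genes, 0 were called by limma for ESRP1 or ESRP2, with the background shares given for total CD44. None of these genes was past 2-fold in the same direction in both lines, as were 0.203% of all genes for ESRP1 and 0.271% for ESRP2. At an unadjusted p under 0.05 stood 820 of 11829 genes for ESRP1 and 1634 for ESRP2. The partners had a median log2 difference of 0.13 for ESRP1 and 0.14 for ESRP2, with 14 and 13 of 16 positive, beside medians of 0.060 and 0.062 and 68.3% and 65.1% positive over all genes. For ESRP1 and ESRP2 in turn, the medians were 0.14 and 0.070 for shedding genes, 0.14 and 0.071 for hyaluronan synthesis and turnover, 0.045 and 0.057 for other receptors and -0.023 and 0.078 for further ligands.

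The linkers to actin were abundant in every library. EZR, which encodes ezrin, was at 353, 351 and 295 TPM in PANC-1 with ESRP1, ESRP2 and LPCX, and at 548, 602 and 543 TPM in MIA-PaCa2. MSN, for moesin, was at 268, 269.7 and 245 TPM in PANC-1 and 311, 304 and 282 TPM in MIA-PaCa2, in the same order. The scaffold gene IQGAP1 was between 136 and 215 TPM. All 3 lay slightly above LPCX in the 4 ESRP libraries, by log2 ratios of 0.013 to 0.34.

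Among the hyaluronan genes, HAS3, a hyaluronan synthase, went opposite ways in the lines. It was at 46.0 and 44.0 TPM in PANC-1 with ESRP1 and ESRP2, against 65.3 TPM with LPCX. In MIA-PaCa2 it was at 33.7 and 11.1 TPM, against 9.51 TPM. UGDH, which makes a precursor sugar, was at 91.5 and 91.7 TPM in PANC-1 with ESRP1 and ESRP2, against 77.5 TPM with LPCX, and at 28.4 and 29.2 TPM in MIA-PaCa2, against 29.8 TPM. The hyaluronidase HYAL2 was between 43.5 and 56.5 TPM in the 6 libraries, and HMMR, another hyaluronan-binding protein, between 113 and 163 TPM. ICAM1, an adhesion molecule also listed as a hyaluronan binder, was at 55.0, 60.2 and 69.1 TPM in PANC-1 with ESRP1, ESRP2 and LPCX, and at most at 0.183 TPM in MIA-PaCa2, while BCAN, for the matrix protein brevican, was at most at 0.498 TPM in PANC-1 and at 26.6 to 28.5 TPM in MIA-PaCa2.

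Of the ligand and protease genes, SRGN and FGF2 showed the line more than the construct. By limma, ADAM10 (-0.70, adjusted p = 0.000379) and NCSTN (-0.21, adjusted p = 0.0181) were lower in PANC-1 than in MIA-PaCa2. HBEGF and APH1A were not called between the lines by limma (adjusted p = 0.103 and 0.376), where 78.8% of all genes were. SRGN, for the proteoglycan serglycin, was at 2.36, 1.38 and 4.52 TPM in PANC-1 with ESRP1, ESRP2 and LPCX, and at 752, 604 and 761 TPM in MIA-PaCa2. FGF2, a growth factor, was at 21.1 to 24.0 TPM in PANC-1 and 3.10 to 5.36 TPM in MIA-PaCa2, and HBEGF, an EGF family ligand, was at 5.98 to 10.2 TPM over all. ADAM10, a sheddase of CD44, was at 69.5 and 71.6 TPM in PANC-1 with ESRP1 and ESRP2, against 57.4 TPM with LPCX, and at 101 and 121 TPM in MIA-PaCa2, against 102 TPM. The gamma-secretase subunits APH1A and NCSTN were at 153 to 185 TPM and at 75.4 to 91.5 TPM.

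Of 18 splicing regulators reported to act on CD44 exons, all were tested and the 1 called, where 0.00845% of all genes were, was ESRP1, the introduced gene itself, for ESRP1 (log2 difference 8.51, SE 0.130, adjusted p = 5.36e-05). ESRP2 differed by 5.32 for ESRP2 (SE 1.11, adjusted p = 0.329), where 0.0169% of all genes were called. The median of the 18 was 0.077 for ESRP1 and 0.055 for ESRP2, beside 0.060 and 0.062 over all genes. Of the 18, 17 had a positive log2 difference for ESRP1 and 12 for ESRP2, beside 68.3% and 65.1% of all genes. KHDRBS1 and HNRNPM, which also act on these exons, had log2 ratios over LPCX between 0.087 and 0.26 in the 4 ESRP libraries. Neither was called by limma (adjusted p = 0.349 and 0.347 for ESRP2), and others of the list, such as RBM3 (-0.13 for ESRP2), were lower.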

How the data were processed

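RNA was sequenced from 6 TruSeq mRNA libraries, per the labels. Salmon and GRCh38 (hg38) are named in the submitters' processing notes, with no version or annotation release stated in the labels. The deposited values are TPM, a length-scaled abundance signal, which the authors gave for RefSeq transcripts. Of 67792 deposited rows, 8664 repeated another and were dropped, after which each column summed to 1000000. The column for MIA-PaCa2 ESRP2 is headed ESRP12 and that for MIA-PaCa2 LPCX spells the line differently, so both were assigned by elimination.

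The log2 odds of each transcript against the rest of its gene (pseudocount 0.5 TPM) and log2 of gene TPM plus 1 were fitted with limma 3.58.1 in R 4.3.3 with a trend, including terms for construct and cell line, which left 2 residual degrees of freedom. The transcript fit took 12965 transcripts that reached 10% of their gene in any library. Their genes had more than 1 listed transcript and at least 5 TPM in every library. The gene fit took 11829 genes that reached 5 TPM in 2 or more libraries. P-values were adjusted by Benjamini-Hochberg over all features, at 0.05. The cell line is the block, since libraries of a line share their parent cells. The labels do not name separate cultures, so p-values measure the spread between these libraries. Both fits were also run on simulated data, with an outcome not reported here. Exons and sequences come from GENCODE release 29 transcripts, which matched all 8 CD44 rows. Inclusion is the share of CD44 TPM in transcripts that hold an exon. Planned windows in introns were not analysed here.

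Members and gene lists were chosen with earlier results of these data known. By rule the text names every CD44 transcript, ESRP1 and ESRP2, the 5 transcripts nearest to the CD44 loss and gain, and from each gene list the members past 2-fold in both lines, or else the 3 most abundant. Some of these nearest transcripts are not reported here. Marker genes and the regulators KHDRBS1 and HNRNPM were named besides. Alternatives were other pseudocounts, filters and scalings, percentage points, no trend, no block, and leaving out each library.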

Additional observations from a re-analysis of the deposited data

Results flagged for a closer look

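Several values went in opposite directions in the lines, each resting on 1 library per line and construct. None of these differences was tested, since no residual spread is left for them. They are given as PANC-1 minus MIA-PaCa2 in log2 ratio over LPCX, unless stated.

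HAS3, a hyaluronan synthase, had the widest gap, -2.22 with ESRP1 (-0.49 in PANC-1, 1.72 in MIA-PaCa2) and -0.76 with ESRP2. Total CD44 differed by 0.26 with ESRP2 (0.17 in PANC-1, -0.096 in MIA-PaCa2). The share of NM_001202556, a transcript near 0 TPM, differed by 0.081 percentage points with ESRP1 and 0.078 with ESRP2.

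HBEGF differed by -0.49 with ESRP1 and -0.76 with ESRP2. ICAM1 differed by -0.57 and -0.42, and UGDH by 0.30 and 0.27. The gap of NCSTN was 0.096 with ESRP1 and 0.11 with ESRP2. With ESRP1 alone, ADAM10 differed by 0.28 and BCAN by -0.10. With ESRP2 alone, APH1A differed by 0.24, HYAL2 by 0.23 and the ESRP1 gene, at 0.261 TPM or less in these libraries, by -0.17.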

How the results depend on the processing

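The call of the standard form for ESRP1 was lost at a pseudocount of 0.1 TPM (-4.56, adjusted p = 0.0965), with genes from 1 TPM (-4.56, adjusted p = 0.134), with no share filter (-4.56, adjusted p = 0.108), without a trend (-4.56, adjusted p = 0.153), in percentage points (-65.8, adjusted p = 0.274) and with no cell line block (-4.56, adjusted p = 0.0576). A pseudocount of 1 TPM kept it (adjusted p = 0.0205) and also passed the standard form for ESRP2 (-3.56, adjusted p = 0.0374). Leaving out 1 library gave -4.61 to -4.50 for ESRP1 and -3.62 to -3.52 for ESRP2, with adjusted p = 0.0953 to 1.0 and 0.135 to 0.558. Over all transcripts these settings called 0 or 1 for ESRP1, 0 to 2 for ESRP2, and 207 to 3046 for PANC-1 against MIA-PaCa2, against 2238.

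The short-tail difference between the lines was -2.99 to -2.88 without a library, and missed the threshold each time. It also missed it in percentage points (-8.47, adjusted p = 0.0521), while 5 of the 6 other settings kept the call. With no share filter the difference was -2.95 (adjusted p = 0.00854). Without a library the v8-v10 form lay between 3.15 and 7.73 for ESRP1 and between 3.21 and 7.79 for ESRP2, both against LPCX. It ranged from -1.22 to 1.10 for ESRP1 against ESRP2 and from -0.13 to 2.17 between the lines without a library. It reversed for ESRP1 against ESRP2 without PANC-1 ESRP1 (1.07) or MIA-PaCa2 ESRP2 (1.10), and between the lines without either LPCX library (-0.13 for each).

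Total CD44 without a library lay between 0.021 and 0.25 for ESRP1 against LPCX and between 0.016 and 0.18 for ESRP1 against ESRP2. For ESRP2 it reversed under median ratio scaling (-0.011). Without a library that value lay between -0.078 and 0.15, below 0 without PANC-1 ESRP2 (-0.048) or PANC-1 LPCX (-0.078). Its difference between the lines was 0.28 to 0.41 without a library. With no cell line block, total CD44 stayed uncalled. Genes called ranged from 0 to 1 for ESRP1 and 0 to 30 for ESRP2, against 1 and 2. The cause of these shifts was not tested. The read depth is unknown, so no counting error can be given for the rare forms.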

Other observations

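Values by line follow for 4 genes known as neighbours of CD44 at the membrane, named after their values were seen. Of all genes, 78.8% were called between the lines, so a difference there says nothing particular about these 4. CLDN7, a claudin that can join CD44 and EPCAM in a complex, was at 22.5, 20.7 and 24.5 TPM in PANC-1 with ESRP1, ESRP2 and LPCX, and at most at 0.0643 TPM in MIA-PaCa2. MET, the receptor for which v6 is known, was at 119, 132 and 99.0 TPM in PANC-1, against 12.3, 11.4 and 10.2 TPM in MIA-PaCa2, in the same order of constructs. ERBB2 was at 31.1, 29.1 and 25.1 TPM in PANC-1, against 90.3, 84.0 and 88.1 TPM in MIA-PaCa2. SLC7A11, the cystine carrier known to be held at the surface by v8-v10 CD44, was at 4.36, 5.08 and 5.68 TPM in PANC-1 and 6.11, 8.37 and 6.51 TPM in MIA-PaCa2.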
